A study of Rattus norvegicus with 22 samples.

Results

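Rat microglia that had received serum for 5 days were compared with microglia that had never received it. The comparison takes 10 of the 22 samples of the study, chosen by their column titles: 4 cultures labelled FCS 5d and 6 labelled TIC. Both groups came from Sprague-Dawley rats at postnatal day 21, from brains without the cerebellum, by panning on an antibody to CD11b, a surface protein of microglia and other myeloid cells. Both spent 8 days in culture. TIC cultures stayed in serum-free TIC medium throughout, and FCS 5d cultures were in the same medium for 3 days before 10% fetal calf serum was added to the wells for the remaining 5. Cultures with serum for the final 3 days (FCS 3d, n = 4) or the final 1 day (FCS 1d, n = 5) served to place the difference in time. The samples are biological replicates per the series design, without a word on which share an animal. The p-values treat them as independent and set a difference against the spread within groups, estimated over all 22 samples. As background, TIC is known from the published work on this medium to hold a TGF-beta, a ligand of the CSF1 receptor and cholesterol.

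Microglia are the resident macrophages of the brain and live behind a barrier that keeps blood proteins out. Serum brings growth factors, lipoproteins, clotting and complement proteins, and hormones to cells that would meet them in the body mainly after vessel damage. Macrophages outside the brain tissue, such as those along its vessels and membranes, share a lineage with microglia and are told apart from them by a small set of receptors.

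Both groups carried myeloid transcripts. Csf1r, the receptor that microglia need to survive, stood at 344 to 681 FPKM in TIC and 582 to 921 FPKM in FCS 5d (fragments per kilobase of transcript, scaled to the fragments mapped in the library). The ranges were 373 to 933 FPKM in TIC and 647 to 1310 FPKM in FCS 5d for Aif1, the calcium-binding protein IBA1, and 1810 to 4440 FPKM in TIC and 1700 to 2440 FPKM in FCS 5d for Fcer1g, a signalling chain of immune receptors. Markers that set microglia apart from other macrophages were low in both: Sall1, a transcription factor of microglia, was at 1.02 to 2.32 FPKM in TIC and 1.5 to 2.98 FPKM in FCS 5d against 45.2 to 126 FPKM in the group Acute of freshly isolated cells (n = 3), and Tmem119 at 9.17 to 25.6 FPKM in TIC and 2.01 to 21.3 FPKM in FCS 5d against 760 to 1860 FPKM. The cultures are therefore described here by their labels and not as cells with the profile of microglia in the brain.

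The 10 libraries were not alike in ways the groups do not explain. Summed FPKM were 696038 and 696189 in TIC 5 and TIC 6 and 335470 to 412145 in the other 8. Of the tested genes, 964 to 1295 were listed at 0 in TIC 1, 2 and 3 and FCS 5d 1, and 418 to 672 in the rest. Steps between low values put the depth of FCS 5d 1, TIC 2 and TIC 3 at 0.85 to 1.1 times that of TIC 1 and the others at 2.4 to 4.8 times, while absolute depth is unknown. The labels name 2 batches of library preparation that each held all conditions but not which sample was in which, so no batch entered the test. Values of single libraries are given below for part of the results that these divisions touch. Their absence does not mean that a result was untouched.

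After 5 days of serum 1251 of 9691 tested genes (12.9%) differed from TIC, by limma at an adjusted p under 0.05. Of these, 466 (4.81%) rose and 785 (8.1%) fell, and 1014 changed by at least 2-fold on the log2(FPKM + 1) scale. The libraries of the groups did not overlap for 1311 genes (13.5%), 981 of them called. Genes named below as the largest rises or falls were taken only from called genes without overlap. For them the separation follows from that rule and adds no evidence. Differences are on the log2(FPKM + 1) scale, FCS 5d minus TIC, with the standard error of the fit. Unless said otherwise, 3 values for TIC are the lowest, the median and the highest of its 6 libraries, and 4 values for FCS 5d are libraries 1 to 4 in order. The median over all tested genes was -0.0795. The split depended on scaling and on the libraries used. After quantile normalization 758 rose and 753 fell, and the median moved to 0.0305. Median-of-ratios scaling gave 673 rises and 796 falls and moved the median to 0. Without TIC 5 and TIC 6, 565 rose and 531 fell. With only the libraries of few zeros, in these groups TIC 4 to 6 and FCS 5d 2 to 4, 461 rose and 1020 fell. With the division by zeros as a term 526 rose and 1073 fell. Without FCS 5d 4 the counts were 282 and 534, and without FCS 5d 2 297 and 559. Lists of genes are read against the shares of 4.81% and 8.1%. Their members were chosen with earlier results of these data known, so the choice can raise a count above these shares. The counts describe the lists and are no independent result. Among the 25 lists plotted, genes of cell division, complement and border macrophages rose most often, and genes of lipid synthesis, cytokines, osteoclasts, S100 proteins, adhesion and the disease-associated set of microglia fell most often. These are bulk RNA measurements, in which more cells of a kind and more RNA per cell cannot be told apart.

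**Figure D1:**
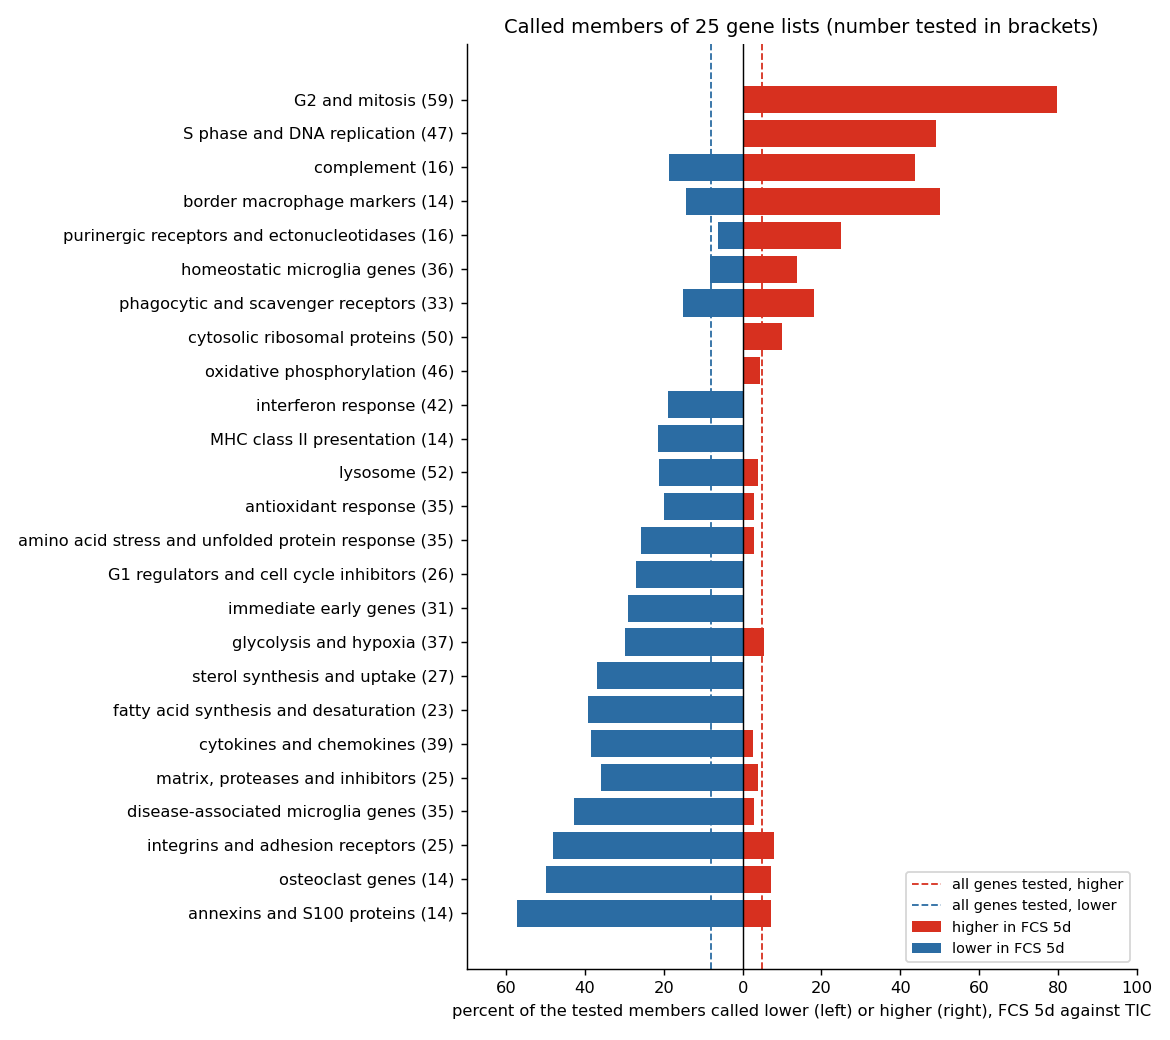
Percent of the tested members of 25 gene lists that were called higher (red, right) or lower (blue, left) in FCS 5d against TIC, with the number tested in brackets and dashed lines at the shares among all genes tested (4.81% and 8.1%). In the G2 and mitosis list 47 of 59 members were higher and none was lower. In the annexin and S100 list 8 of 14 were lower. The lists were chosen with earlier results of these data known.

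Genes of cell division rose together. Of 59 tested genes of G2 and mitosis, 47 rose and none fell, the median difference was 1.43, and all 59 differences were above 0. Their summed share of FPKM was 0.487% to 0.531% in FCS 5d and 0.16% to 0.292% in TIC. Counts stayed between 33 and 51 with none lower in every alternative except the libraries with many zeros alone, where 1 FCS 5d library met 3 TIC libraries and none was called. Pttg1, the securin that holds back the separation of sister chromatids until anaphase, had 5.19, 11.1 and 20.3 FPKM in TIC and 41.0, 83.0, 61.9 and 69.5 FPKM in FCS 5d. Cdk1, the kinase that drives entry into mitosis, had 9.77, 27.4 and 41.3 FPKM in TIC and 77.1, 113, 98.3 and 105 FPKM in FCS 5d. Mki67, the antigen of the proliferation stain Ki-67, had 1.86, 5.40 and 8.20 FPKM in TIC and 21.9, 18.7, 18.6 and 22.3 FPKM in FCS 5d. For these 3 genes every FCS 5d library lay above every TIC library, and the lowest TIC library was TIC 3 for Pttg1 and Cdk1 and TIC 5 for Mki67. The differences were 2.35 ± 0.32 (adjusted p = 2.2e-05) for Pttg1, 1.97 ± 0.32 (adjusted p = 0.00016) for Cdk1 and 1.90 ± 0.39 (adjusted p = 0.0016) for Mki67. Ccnb2, a B-type cyclin partner of Cdk1, rose by 2.10 ± 0.38 (adjusted p = 0.00054), Cenpa, the histone variant of centromeres, by 1.95 ± 0.51 (adjusted p = 0.012), and the checkpoint kinase Bub1 by 1.94 ± 0.49 (adjusted p = 0.0097).

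Many promoters of mitotic genes are known to hold a short element, the cell cycle homology region, through which the DREAM and MuvB complexes keep them silent outside division. The windows below are shown because their genes had the largest rises among called mitotic genes with that element. They are the 250 bases before the annotated start on the gene's strand, from RefSeq for GRCr8, a later build than the one named for the deposited values. Capitals mark the searched letters, TTTGAA or TTCGAA on either strand.
Pttg1, chr10:28406327-28406576, minus strand: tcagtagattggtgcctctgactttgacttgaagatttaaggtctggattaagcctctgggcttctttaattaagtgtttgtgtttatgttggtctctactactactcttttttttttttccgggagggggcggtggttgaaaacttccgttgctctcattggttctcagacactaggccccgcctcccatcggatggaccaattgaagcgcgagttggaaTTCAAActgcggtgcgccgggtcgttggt
Ccnb2, chr8:79981659-79981908, minus strand: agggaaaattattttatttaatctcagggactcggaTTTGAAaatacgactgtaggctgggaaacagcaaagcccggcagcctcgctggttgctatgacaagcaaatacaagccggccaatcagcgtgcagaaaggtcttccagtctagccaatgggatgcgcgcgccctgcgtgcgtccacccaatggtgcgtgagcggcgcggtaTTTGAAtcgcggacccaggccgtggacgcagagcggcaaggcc
Cdk1, chr20:19265043-19265292, plus strand: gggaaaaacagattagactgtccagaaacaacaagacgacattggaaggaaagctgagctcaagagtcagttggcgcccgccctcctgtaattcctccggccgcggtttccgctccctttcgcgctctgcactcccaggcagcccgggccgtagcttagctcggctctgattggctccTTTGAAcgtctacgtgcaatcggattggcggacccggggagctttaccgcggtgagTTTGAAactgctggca
The copy nearest the start begins 29 bases before it for Pttg1, 43 for Ccnb2 and 16 for Cdk1, and Ccnb2 and Cdk1 hold another copy further away. In windows of 300 bases that run 50 bases past the start, 30 of the 40 called mitotic genes with a window held them (75.0%), and 80.4% of all 51 tested members with one, against 13.5% of tested genes and 19.5% of all 27457 windows.

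Replication genes rose as well, with 23 of 47 tested members of the S phase list higher, none lower and a median of 1.00. Without FCS 5d 2 the count was 12, without FCS 5d 4 it was 14, and without TIC 3 it was 14. Tk1, the thymidine kinase of dividing cells, had 7.94, 11.8 and 25.2 FPKM in TIC and 34.7, 69.9, 56.6 and 67.2 FPKM in FCS 5d. Its groups did not overlap, and the highest TIC library was TIC 4. Tk1 rose by 2.06 ± 0.28 (adjusted p = 2.1e-05). Lig1, the DNA ligase of replication forks, rose by 1.76 ± 0.31 (adjusted p = 0.0004), the maintenance methyltransferase Dnmt1 by 1.66 ± 0.32 (adjusted p = 0.0011), and Mcm5, a subunit of the replicative helicase, by 1.60 ± 0.31 (adjusted p = 0.0011). E2F factors are known to control many of these genes. The letters TTTGGCGC or TTTCCCGC on either strand, in capitals below, are shown for the called replication genes with the largest rises that hold them.
Mcm5, chr19:13488563-13488812, plus strand: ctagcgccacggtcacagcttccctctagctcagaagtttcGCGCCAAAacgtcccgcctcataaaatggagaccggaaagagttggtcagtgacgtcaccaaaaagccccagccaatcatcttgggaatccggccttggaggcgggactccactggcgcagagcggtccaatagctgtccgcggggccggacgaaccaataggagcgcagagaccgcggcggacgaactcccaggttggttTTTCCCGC
Gins1, chr3:160184670-160184919, plus strand: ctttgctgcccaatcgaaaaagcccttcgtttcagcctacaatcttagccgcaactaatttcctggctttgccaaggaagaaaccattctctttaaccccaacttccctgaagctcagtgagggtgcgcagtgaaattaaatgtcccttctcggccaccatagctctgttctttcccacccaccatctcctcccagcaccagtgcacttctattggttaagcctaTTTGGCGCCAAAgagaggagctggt
Mcm5 holds them 209 and 8 bases before its start, and Gins1, a subunit of the same helicase complex, has overlapping copies on both strands from 25 bases before its start. They stood in 9 of 19 called replication genes with a window (47.4%), in 38.5% of 39 tested members with one, and in 3.12% of tested genes. A match describes these letters in this window and says nothing of binding.

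Some inhibitors of division fell. Of 26 tested regulators of G1 and inhibitors of the cell cycle 7 fell and none rose, with 15 differences below 0, 11 above and a median of -0.205. The 7 include Ccnd2, a cyclin that promotes division, which was picked out after its values were seen. Gadd45a, a stress-induced brake on division, had 19.0, 25.7 and 39.2 FPKM in TIC and 0, 1.27, 2.35 and 2.00 FPKM in FCS 5d. Cdkn1a, the inhibitor p21, had 53.7, 81.2 and 131 FPKM in TIC and 22.3, 21.7, 29.7 and 13.8 FPKM in FCS 5d. Both were lower in every FCS 5d library than in any TIC library. The differences were -3.69 ± 0.39 (adjusted p = 6.5e-07) for Gadd45a and -1.93 ± 0.30 (adjusted p = 8.6e-05) for Cdkn1a. Cdkn2b, the inhibitor p15, had 12.6, 20.2 and 36.3 FPKM in TIC and 13.1, 3.64, 6.37 and 4.18 FPKM in FCS 5d, where the first FCS 5d library overlapped TIC (-1.67 ± 0.38, adjusted p = 0.0045). Cdkn2a, which encodes p16 and ARF, fell by 1.81 ± 0.49 (adjusted p = 0.016), but lost its call without FCS 5d 4 (adjusted p = 0.091) and without TIC 5 and TIC 6 (adjusted p = 0.058).

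**Figure D2:**
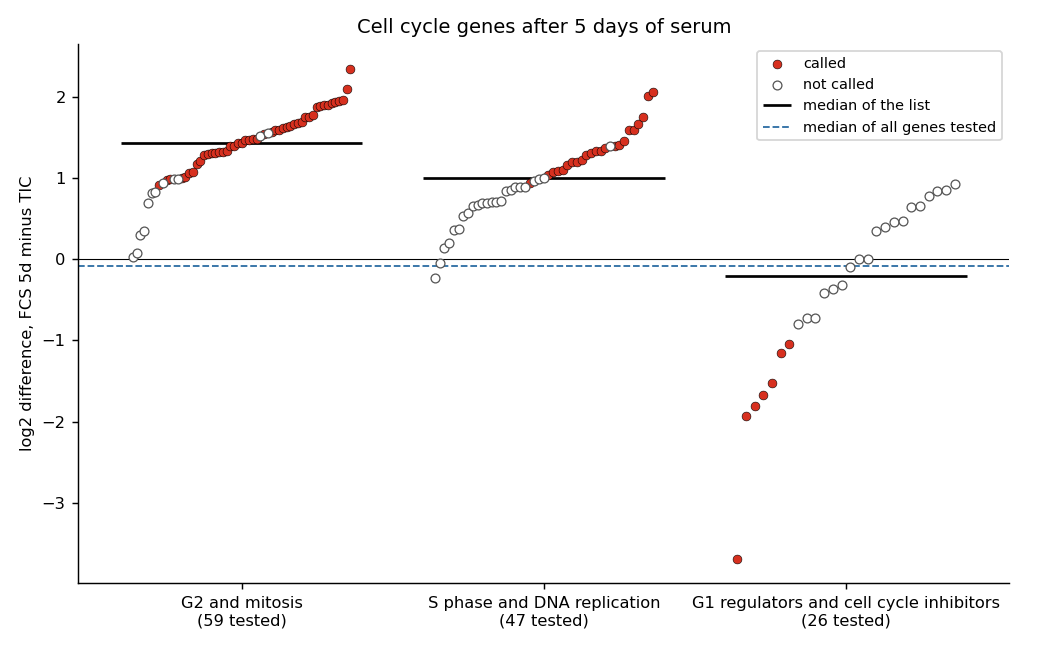
Log2 difference between FCS 5d (n = 4) and TIC (n = 6) for every tested gene of 3 cell cycle lists, sorted within each list, with called genes in red, the list's median as a black line and the median of all tested genes as a dashed line. The 59 genes of G2 and mitosis all lie above 0 with a median of 1.43, while Gadd45a and Cdkn1a lie at the bottom of the last list.

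The C1q chains, with which the classical complement cascade begins, rose by more than 5 on the log2 scale. In the complement list, 7 of 16 tested genes rose and 3 fell. C1qa, C1qb and C1qc encode the chains of C1q, which tags debris and, in the developing brain, synapses for removal. C1qa had 7.01, 19.9 and 26 FPKM in TIC and 422, 552, 666 and 719 FPKM in FCS 5d. C1qb had 13.6, 20.2 and 54.0 FPKM in TIC and 667, 1147, 868 and 2189 FPKM in FCS 5d. C1qc had 8.13, 19.9 and 42.1 FPKM in TIC and 286, 728, 693 and 1447 FPKM in FCS 5d. None of the 3 overlapped between groups, and FCS 5d 4 was the highest and FCS 5d 1 the lowest for each. The differences were 5.03 ± 0.35 (adjusted p = 1.1e-09) for C1qa, 5.53 ± 0.37 (adjusted p = 5.4e-10) for C1qb and 5.16 ± 0.46 (adjusted p = 4e-08) for C1qc. C3, on which the pathways of complement converge, had 1.96, 6.76 and 12.5 FPKM in TIC and 89.0, 45.8, 70.7 and 95.2 FPKM in FCS 5d (3.36 ± 0.43, adjusted p = 9e-06). Cfp, or properdin, which stabilises the alternative pathway's convertase, had 4.48, 14.4 and 20.6 FPKM in TIC and 69.3, 97.9, 119 and 289 FPKM in FCS 5d (3.35 ± 0.47, adjusted p = 2.9e-05). Both were again higher in every serum library, and FCS 5d 4 was highest for both. The receptor of the C5a fragment, C5ar1, went the other way, from 425, 493 and 689 FPKM in TIC to 193, 90.2, 121 and 133 FPKM in FCS 5d (-2.01 ± 0.25, adjusted p = 8.1e-06). Cd55, which protects cells from complement, was at 0.778, 3.85 and 24.4 FPKM in TIC and listed at 0 in 3 FCS 5d libraries and at 0.310 FPKM in FCS 5d 3. Its difference of -2.40 ± 0.65 (adjusted p = 0.016) became -1.57 with adjusted p = 0.093 without TIC 5 and TIC 6, the highest TIC libraries for it.

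Among markers of macrophages at the borders of the brain 7 of 14 tested members rose and 2 fell. Their summed share of FPKM went the other way, from 1.85% to 2.52% in TIC to 1.05% to 1.43% in FCS 5d, and Lyz2, a lysozyme and by far the most abundant member, was among those that fell. The count of higher members was 4 without FCS 5d 2 and 4 without FCS 5d 4. Mrc1, the mannose receptor CD206, had 4.79, 8.32 and 14.2 FPKM in TIC and 77.9, 112, 89.7 and 137 FPKM in FCS 5d. Lyve1, a hyaluronan receptor, had 0.253, 3.49 and 8.33 FPKM in TIC and 19.8, 75.1, 16.1 and 205 FPKM in FCS 5d. Siglec1, a receptor for sialic acid, had 0, 0.573 and 1.21 FPKM in TIC and 8.82, 13.2, 11.3 and 5.53 FPKM in FCS 5d. All 3 were separate between groups, but Lyve1 spread widely within FCS 5d, with FCS 5d 2 and 4 high and FCS 5d 1 and 3 low. Mrc1 rose by 3.43 ± 0.27 (adjusted p = 6e-09), Lyve1 by 3.69 ± 0.59 (adjusted p = 0.00015) and Siglec1 by 2.77 ± 0.32 (adjusted p = 2.3e-06). Without FCS 5d 4 the difference of Lyve1 was 2.99. Ms4a7, a membrane protein of these macrophages, rose by 1.83 ± 0.52 (adjusted p = 0.020) with groups that overlapped, and lost its call without FCS 5d 2 (adjusted p = 0.076) or FCS 5d 4 (adjusted p = 0.074). Ccr1, a chemokine receptor on the same list, fell from 20.1, 63.1 and 79.8 FPKM to 2.36, 0.831, 4.31 and 0.525 FPKM (-4.39 ± 0.62, adjusted p = 3.5e-05), and Lyz2 fell by 1.27 ± 0.31 (adjusted p = 0.0076).

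**Figure D3:**
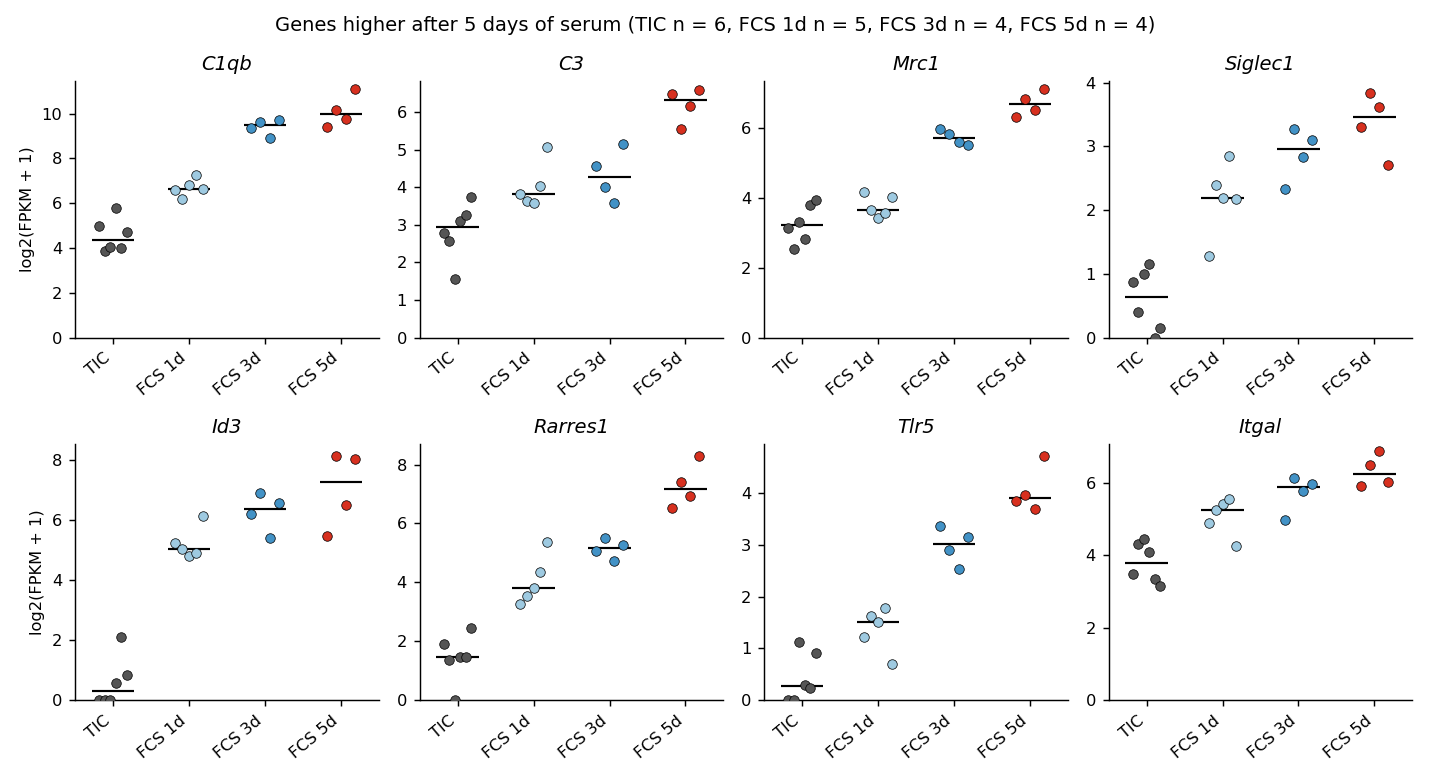
Log2(FPKM + 1) of 8 genes higher in FCS 5d than in TIC, 1 point per library, with the group median as a line and the cultures with 1 and 3 days of serum between them. For each of the 8 genes the 4 FCS 5d libraries lie above all 6 TIC libraries, which the rule that named some of them required. C1qb moved from 13.6 to 54.0 FPKM in TIC to 667 to 2189 FPKM in FCS 5d.

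The largest rise of all was in Id3, an inhibitor of differentiation that TGF-beta and BMP signals induce. It was listed at 0 in TIC 1, 2 and 3 and stood at 0.505, 3.31 and 0.791 FPKM in TIC 4 to 6, against 44.0, 282, 90.0 and 261 FPKM in FCS 5d (6.45 ± 0.50, adjusted p = 5.8e-09). Again FCS 5d 2 and 4 were high and FCS 5d 1 and 3 low, but all 4 were far above TIC. Id1, its relative, had 0.860, 12.6 and 59.3 FPKM in TIC and 9.61, 64.1, 17.6 and 55.1 FPKM in FCS 5d. Those groups overlapped and the difference of 1.36 ± 0.66 (adjusted p = 0.20) did not pass, though it did without TIC 4, the highest TIC library (1.84, adjusted p = 0.041). Of 29 tested genes of the TGF-beta and BMP pathways, 3 rose and 4 fell, with 2 falls without TIC 6 or any 1 of the FCS 5d libraries. The metalloprotease Bmp1, which processes procollagen, had 0.508, 1.40 and 2.78 FPKM in TIC and 12.0, 5.58, 11.2 and 5.99 FPKM in FCS 5d (1.92 ± 0.31, adjusted p = 0.00019). Inhba, the beta chain of activin A, was listed at 0 in all 4 FCS 5d libraries and at 0 to 19.7 FPKM in TIC.

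Other large rises came from genes of varied function, most of them named by the rule that required groups without overlap. Rarres1, a retinoic acid-responsive membrane protein, had 0, 1.77 and 4.48 FPKM in TIC and 90.0, 168, 121 and 312 FPKM in FCS 5d. Cybrd1, a ferric reductase of iron uptake, had 0.487, 1.34 and 2.72 FPKM in TIC and 48.7, 42.9, 56.5 and 35.9 FPKM in FCS 5d. Tlr5, the receptor for flagellin, had 0, 0.204 and 1.17 FPKM in TIC and 13.3, 14.6, 11.9 and 25.3 FPKM in FCS 5d. In all 3 the groups were apart by a wide margin, and Cybrd1 varied little among serum libraries. The differences were 5.84 ± 0.54 (adjusted p = 7e-08) for Rarres1, 4.32 ± 0.37 (adjusted p = 2.1e-08) for Cybrd1 and 3.63 ± 0.31 (adjusted p = 2.1e-08) for Tlr5. Tlr1, a partner of Tlr2, rose by 2.71 ± 0.40 (adjusted p = 5.6e-05). The glutathione peroxidase Gpx3 had 0, 0, 0, 1.29, 11.1 and 9.62 FPKM in TIC 1 to 6 and 29.6, 46.2, 19.3 and 70.6 FPKM in FCS 5d, so that its rise of 3.88 ± 0.71 (adjusted p = 0.00058) was larger, at 4.95, without TIC 5 and TIC 6. Igfbp4, which binds insulin-like growth factors, had 0, 0, 0, 0.660, 2.16 and 0 FPKM in TIC 1 to 6 and 8.06, 25.7, 8.42 and 55.2 FPKM in FCS 5d (3.84 ± 0.52, adjusted p = 2.2e-05). Both stayed apart between the groups, as did Ms4a6bl, a membrane protein of the MS4A family (3.75 ± 0.44, adjusted p = 3.2e-06), Acsbg1, an acyl-CoA synthetase (3.69 ± 0.48, adjusted p = 1e-05), Oplah, the 5-oxoprolinase of glutathione turnover (3.54 ± 0.39, adjusted p = 9.5e-07), and Plac8, a small cysteine-rich protein of leukocytes (3.75 ± 0.52, adjusted p = 2.5e-05).

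Among receptors for uptake, 6 of 33 tested phagocytic and scavenger receptors rose and 5 fell, and 3 rose without FCS 5d 4. Colec12, a scavenger receptor with a collagen stalk, had 2.56, 8.01 and 12.4 FPKM in TIC and 47.5, 63.5, 57.5 and 55.8 FPKM in FCS 5d (2.89 ± 0.41, adjusted p = 3.4e-05). Itgb5, which binds apoptotic cells through bridging proteins, had 3.10, 5.91 and 14.6 FPKM in TIC and 32.0, 16.0, 45.6 and 39.4 FPKM in FCS 5d (2.22 ± 0.43, adjusted p = 0.0010). Neither overlapped between groups, and FCS 5d was even for Colec12. In the other direction, Olr1, the lectin-like receptor for oxidised LDL, had 5.96, 25.6 and 37.5 FPKM in TIC and 0, 0.512, 0 and 0.388 FPKM in FCS 5d (-4.30 ± 0.45, adjusted p = 6.5e-07). Trem1, a receptor that amplifies inflammation, had 118, 153 and 229.6 FPKM in TIC and 9.49, 9.19, 14.9 and 11.6 FPKM in FCS 5d (-3.73 ± 0.34, adjusted p = 6.6e-08). Both receptors were lower in every serum library. Clec4e, or Mincle, a lectin for damaged cells and mycobacterial glycolipid, had 10.2, 34.2 and 47.4 FPKM in TIC and was listed at 0 in 3 FCS 5d libraries and at 0.670 FPKM in FCS 5d 4 (-4.63 ± 0.65, adjusted p = 3.2e-05).

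Genes of homeostatic microglia moved in both directions: 5 of 36 tested members rose and 3 fell, with a median of 0.0653. The higher count was 9 without TIC 5 and TIC 6, 3 without FCS 5d 2 and 2 without FCS 5d 4. P2ry12, the ADP receptor of microglial processes, had 2.65, 3.94 and 9.89 FPKM in TIC and 8.71, 27.0, 7.28 and 47.7 FPKM in FCS 5d (1.78 ± 0.47, adjusted p = 0.012). P2ry13, a related receptor, had 0, 2.09 and 8.11 FPKM in TIC and 8.63, 15.2, 12.9 and 36 FPKM in FCS 5d (2.29 ± 0.54, adjusted p = 0.0058). P2ry13 was separate between groups, while FCS 5d 1 and 3 overlapped TIC for P2ry12, whose call was lost without FCS 5d 2 (adjusted p = 0.060) or FCS 5d 4 (adjusted p = 0.088). In the list of purinergic receptors and ectonucleotidases 4 of 16 rose and 1 fell. Entpd1, the ectonucleotidase CD39, rose by 1.31 ± 0.28 (adjusted p = 0.0026), while P2ry2, a receptor for ATP and UTP, fell by 1.72 ± 0.45 (adjusted p = 0.012) and missed the threshold without FCS 5d 4 (adjusted p = 0.086) and without TIC 5 and TIC 6 (adjusted p = 0.077). Bin1, a membrane-bending adaptor, rose by 1.65 ± 0.43 (adjusted p = 0.011), which did not pass without FCS 5d 4 (adjusted p = 0.063). Tmem119 had 9.17, 16.9 and 25.6 FPKM in TIC and 2.01, 21.3, 9.72 and 15.9 FPKM in FCS 5d (-0.62 ± 0.40, adjusted p = 0.38), Cx3cr1, the fractalkine receptor, differed by 1.09 ± 0.67 (adjusted p = 0.35), and Sall1 by 0.34 ± 0.29 (adjusted p = 0.53). None of these 3 passed and their groups overlapped. Csf1r differed by 0.53 ± 0.22 (adjusted p = 0.11) and Aif1 by 0.82 ± 0.33 (adjusted p = 0.10), and neither passed. Aif1 did pass without TIC 5 and TIC 6 (1.15, adjusted p = 0.021) and after quantile (adjusted p = 0.0014) or median-of-ratios scaling (adjusted p = 0.013), and Csf1r after the latter (adjusted p = 0.042). Among transcription factors of macrophages 4 of 32 rose and 5 fell, and leaving out TIC 1, TIC 5, TIC 6 or any 1 FCS 5d library took at least 1 of the counts down to 2 or 3. Tfec, a relative of the lysosomal regulator Tfeb, had 0, 5.23 and 6.90 FPKM in TIC and 16.1, 22.7, 29.8 and 22.2 FPKM in FCS 5d (2.45 ± 0.51, adjusted p = 0.0022).

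Transcripts of fatty acid and sterol synthesis were lower for part of each list. In the fatty acid list 9 of 23 tested genes fell and none rose, with 6 without TIC 5 and TIC 6. In the sterol list 10 of 27 fell and none rose, and the count stayed between 9 and 12 in every alternative but the libraries with many zeros alone, where it was 1. Scd1, a stearoyl-CoA desaturase that makes oleate, had 13.8, 20.7 and 25 FPKM in TIC and was listed at 0 in all 4 FCS 5d libraries. Scd2, another desaturase of the family, had 350.0, 472 and 576 FPKM in TIC and 19.4, 13.1, 36.3 and 17.6 FPKM in FCS 5d (-4.39 ± 0.35, adjusted p = 1.1e-08). Srebf1, the transcription factor that drives fatty acid synthesis, had 37.3, 54.4 and 61.4 FPKM in TIC and 6.14, 6.14, 6.61 and 6.74 FPKM in FCS 5d (-2.85 ± 0.25, adjusted p = 4e-08). For these genes the groups were far apart, and the 4 serum libraries lay close together for Srebf1. The desaturase Fads1 fell by 1.69 ± 0.37 (adjusted p = 0.0032). Among sterol genes, Msmo1, a methyl sterol oxidase, had 46.1, 64.0 and 103 FPKM in TIC and 8.91, 13.5, 17.6 and 8.79 FPKM in FCS 5d (-2.44 ± 0.28, adjusted p = 1.7e-06). It was lower in every serum library. Insig1, the sterol sensor that holds back SREBP processing, fell by 2.17 ± 0.32 (adjusted p = 4.8e-05) and Fdps, which makes farnesyl diphosphate, fell by 1.83 ± 0.31 (adjusted p = 0.00024). Hmgcs1, at the head of the pathway, had 2.96, 6.47 and 16.2 FPKM in TIC and 8.00, 4.34, 4.87 and 4.60 FPKM in FCS 5d, which overlapped and did not pass (-0.31 ± 0.35, adjusted p = 0.66). The sterol element searched, TCACNCCAC, was in none of the windows of the 20 sterol genes and 18 fatty acid genes that had one, and in 1.08% of tested genes.

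Lipid efflux and handling were mixed. Of 23 targets of the sterol-sensing LXR receptors and efflux genes, 8 fell and 2 rose, with 5 falls without TIC 5 and TIC 6, without FCS 5d 1, without FCS 5d 2 or after quantile normalization. Abcg1, a cholesterol exporter, had 125, 160.1 and 227 FPKM in TIC and 41.6, 53.1, 63.5 and 66.8 FPKM in FCS 5d (-1.56 ± 0.30, adjusted p = 0.0011). Pltp, the phospholipid transfer protein, had 110.5, 131, 222 and 158 FPKM in FCS 5d, 135 FPKM in TIC 5 and a listed 0 in the other 5 TIC libraries. TIC 5 lay inside the serum range, and its rise of 6.06 ± 1.52 (adjusted p = 0.0094) rests on listed zeros. Apoe, the main lipid carrier of the brain, had 251, 270.2, 341, 643, 2369 and 2270 FPKM in TIC 1 to 6 and 750.2, 2224, 1409 and 3635 FPKM in FCS 5d. TIC 5 and TIC 6 lay inside the serum range and the other 4 below it. Its difference of 1.38 ± 0.65 (adjusted p = 0.18) did not pass, but it was 2.29 with adjusted p = 0.0077 without those 2 libraries. Carriers of fatty acids fell: Fabp5 had 901, 1216 and 1400 FPKM in TIC and 182, 352, 349 and 109.9 FPKM in FCS 5d (-2.36 ± 0.38, adjusted p = 0.00017), and Fabp4, whose groups overlapped, fell by 2.66 ± 0.69 (adjusted p = 0.011), a call lost without FCS 5d 4 (adjusted p = 0.075) and, at -1.79, without TIC 5 and TIC 6 (adjusted p = 0.073). Lpl, the lipoprotein lipase, had 501, 708 and 783 FPKM in TIC and 587, 490.2, 626 and 225 FPKM in FCS 5d and did not pass (-0.56 ± 0.31, adjusted p = 0.28).

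The largest falls were in genes of bone-resorbing osteoclasts and of matrix breakdown. Of 14 tested osteoclast genes 7 fell and 1 rose, with 5 falls without TIC 5 and TIC 6 and 4 without FCS 5d 1. Ctsk, the cathepsin that degrades collagen in bone, had 131, 118, 171, 92.7, 877 and 880.2 FPKM in TIC 1 to 6 and 0, 2.71, 3.21 and 1.37 FPKM in FCS 5d. Atp6v0d2, a proton pump subunit of osteoclasts, had 17.0, 25.6, 35.5, 11.3, 177 and 159.8 FPKM in TIC 1 to 6 and 0, 0.294, 1.31 and 0 FPKM in FCS 5d. TIC 5 and TIC 6 were several times above the other TIC libraries for both genes, and even the lowest TIC library was far above the highest serum library. The differences were -6.61 ± 0.70 (adjusted p = 7e-07) for Ctsk and -5.03 ± 0.71 (adjusted p = 3e-05) for Atp6v0d2, or -5.67 and -4.03 without TIC 5 and TIC 6. Car2, the carbonic anhydrase that supplies protons, had 609, 679.6, 516, 457, 329 and 414 FPKM in TIC 1 to 6 and 19.4, 15.8, 17.6 and 30.0 FPKM in FCS 5d (-4.53 ± 0.30, adjusted p = 5.4e-10). Here TIC 5 and TIC 6 were the lowest of TIC and still far above serum. Mmp9, a gelatinase, fell by 2.43 ± 0.55 (adjusted p = 0.0040). Acp5, the tartrate-resistant phosphatase, fell by 1.94 ± 0.57 (adjusted p = 0.025), a call that leaving out TIC 5, TIC 6 or any 1 FCS 5d library removed (adjusted p = 0.050 to 0.074), and it was -1.04 with adjusted p = 0.14 without TIC 5 and TIC 6. Tnfrsf11a, the receptor RANK, had 1.36, 4.71 and 11.8 FPKM in TIC and 9.62, 11.2, 8.80 and 12.3 FPKM in FCS 5d with overlap. Its rise of 1.09 ± 0.36 (adjusted p = 0.046) was lost without any 1 library except TIC 5 (adjusted p = 0.059 to 0.13).

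Among 25 matrix genes, proteases and inhibitors 9 fell and 1, Adam9, a sheddase, rose (1.32 ± 0.30, adjusted p = 0.0046). Mmp12, the macrophage elastase, had 183, 179, 243, 53.4, 583 and 532 FPKM in TIC 1 to 6 and 1.22, 0.643, 5.40 and 2.17 FPKM in FCS 5d (-6.27 ± 0.54, adjusted p = 2.6e-08). TIC 4 was lowest and TIC 5 and TIC 6 highest, all well above serum. In the lysosome list 11 of 52 fell and 2 rose, but 5 fell without TIC 5 and TIC 6, 7 without FCS 5d 1 and 6 without FCS 5d 4. Car5b, a mitochondrial carbonic anhydrase, had 16.9, 22.8 and 35.1 FPKM in TIC and 0, 0.653, 0.645 and 0.275 FPKM in FCS 5d (-4.19 ± 0.48, adjusted p = 2.1e-06). Creb3, a membrane-bound transcription factor, was at 36.9, 51.4 and 89.8 FPKM in TIC and listed at 0 in all 4 FCS 5d libraries, and also in libraries of other groups, so no fold is given.

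**Figure D4:**
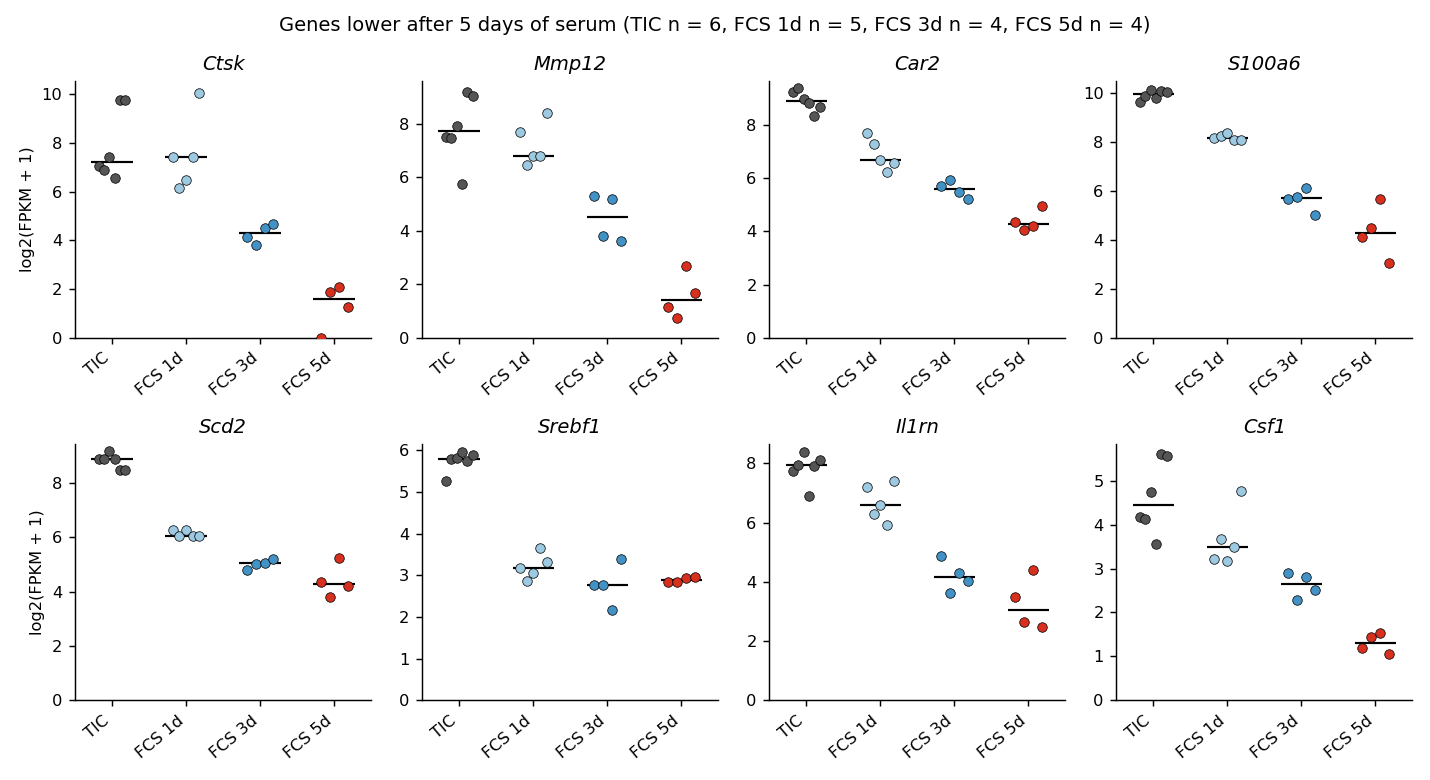
Log2(FPKM + 1) of 8 genes lower in FCS 5d than in TIC, 1 point per library, with group medians as lines and the cultures with 1 and 3 days of serum between them. The 4 FCS 5d libraries lie below all 6 TIC libraries for each gene, which the rule that named some of them required. S100a6 moved from 787 to 1113 FPKM in TIC to 7.24 to 49.6 FPKM in FCS 5d.

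Calcium-binding S100 proteins and annexins fell as a group, 8 of 14 with 1 higher and a median of -1.68. S100a6, or calcyclin, had 787, 987 and 1113 FPKM in TIC and 16.3, 21.0, 49.6 and 7.24 FPKM in FCS 5d. S100a4, a protein of motile cells, had 2384, 2989 and 3794 FPKM in TIC and 624, 609, 690.4 and 824 FPKM in FCS 5d. S100a11 had 181, 141, 151, 147, 715 and 791 FPKM in TIC 1 to 6 and 22, 11.6, 24.9 and 1.63 FPKM in FCS 5d. All serum libraries were below all TIC libraries, and TIC 5 and TIC 6 stood apart for S100a11. S100a6 fell by 5.60 ± 0.38 (adjusted p = 5.4e-10), S100a4 fell by 2.14 ± 0.44 (adjusted p = 0.0019) and S100a11 fell by 4.47 ± 0.94 (adjusted p = 0.0022), or by 3.71 without TIC 5 and TIC 6. S100a10, which binds annexin A2, fell by 2.44 ± 0.34 (adjusted p = 3.2e-05), and Anxa1, an annexin that damps inflammation, fell by 2.28 ± 0.50 (adjusted p = 0.0030). Anxa3 alone rose (1.29 ± 0.41, adjusted p = 0.038), but its groups overlapped and leaving out TIC 2, TIC 3, FCS 5d 1, FCS 5d 2 or FCS 5d 4 put it at adjusted p = 0.060 to 0.12. Adhesion receptors followed a similar count, with 12 of 25 lower and 2 higher. Cd44, the hyaluronan receptor, had 164, 206 and 263 FPKM in TIC and 43.7, 36.1, 36.2 and 30.8 FPKM in FCS 5d (-2.48 ± 0.31, adjusted p = 5.7e-06). Plaur, the urokinase receptor, had 60.6, 80.8 and 165 FPKM in TIC and 18.1, 16.8, 18.4 and 16.5 FPKM in FCS 5d (-2.35 ± 0.62, adjusted p = 0.012), and was at adjusted p = 0.059 without TIC 5 and TIC 6. Both were separate between the groups. Itgal, the alpha chain of the leukocyte integrin LFA-1, rose instead, from 7.87, 13.1 and 20.9 FPKM to 59.5, 89.2, 118 and 63.6 FPKM (2.53 ± 0.33, adjusted p = 1.2e-05). MGC105649, for which no role is given here, fell by 5.06 ± 0.42 (adjusted p = 2e-08). Lsp1, an actin-binding protein of leukocytes, had 207, 300.4 and 364 FPKM in TIC and 15.9, 14.9, 26.7 and 9.43 FPKM in FCS 5d (-4.12 ± 0.27, adjusted p = 5.4e-10).

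Cytokines and chemokines fell in 15 of 39 tested genes and rose in 1. Il1rn, the antagonist of interleukin-1, had 119, 243 and 329.6 FPKM in TIC and 10.2, 5.21, 20.2 and 4.56 FPKM in FCS 5d. Ccl2, the chemokine that draws monocytes, had 1457, 2915 and 3930 FPKM in TIC and 755, 163, 298 and 75.3 FPKM in FCS 5d. Csf1, a ligand of Csf1r, had 10.8, 21.4 and 48.1 FPKM in TIC and 1.29, 1.70, 1.90 and 1.06 FPKM in FCS 5d. The groups did not overlap for any of the 3, and FCS 5d 4 was the lowest library for each. The differences were -4.58 ± 0.42 (adjusted p = 6e-08) for Il1rn, -3.59 ± 0.80 (adjusted p = 0.0036) for Ccl2 and -3.33 ± 0.36 (adjusted p = 9.4e-07) for Csf1. Ccl3, a ligand of Ccr1, fell by 2.84 ± 0.65 (adjusted p = 0.0046), and Ccl9 fell by 3.32 ± 0.55 (adjusted p = 0.00021). Ccl4, a relative of Ccl3, fell by 2.76 ± 0.66 (adjusted p = 0.0065), a call lost at -2.12 without FCS 5d 4 (adjusted p = 0.051). The neutrophil chemokine Cxcl3 was listed at 0 in all 4 serum libraries and at 2.12, 5.20 and 5.79 FPKM in TIC. Tnf had 39.1, 65.3 and 112 FPKM in TIC and 31.0, 21.3, 22.8 and 13.7 FPKM in FCS 5d. Its difference of -1.56 ± 0.46 (adjusted p = 0.026) lost its call without TIC 6, FCS 5d 2, FCS 5d 3 or FCS 5d 4 (adjusted p = 0.051 to 0.11) and without TIC 5 and TIC 6 together (adjusted p = 0.11). Il1b, which encodes interleukin-1 beta, had 239.9, 357 and 553 FPKM in TIC and 632, 462, 622 and 361 FPKM in FCS 5d and did not pass (0.49 ± 0.29, adjusted p = 0.31). Cxcl13, the B cell chemokine, was the only list member to rise: its values were 1.31 FPKM in TIC 4, a listed 0 in the other 5 TIC libraries and 88.1, 6.35, 41.8 and 3.12 FPKM in FCS 5d (4.00 ± 0.67, adjusted p = 0.00023). FCS 5d 1 and 3 were high for it and FCS 5d 2 and 4 low, and the difference was 3.25 without FCS 5d 1 and 4.72 without FCS 5d 4.

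Some interferon-stimulated genes fell. Of 42 tested interferon genes 8 fell and none rose, with 5 after quantile normalization, 12 without TIC 5 and TIC 6, and 5 without TIC 1, TIC 4, FCS 5d 2 or FCS 5d 4. In the libraries with few zeros alone 4 fell. Ifit3, an antiviral RNA-binding protein, had 57.6, 77.4, 63.8, 80.3, 24.3 and 22.4 FPKM in TIC 1 to 6 and 6.46, 6.06, 4.21 and 2.16 FPKM in FCS 5d. Rsad2, or viperin, had 23.7, 26.2, 27.2, 35.0, 7.82 and 10.6 FPKM in TIC 1 to 6 and 6.07, 1.92, 3.01 and 0.946 FPKM in FCS 5d. TIC 5 and TIC 6 were the lowest TIC libraries for both and still above all serum libraries. Ifit3 fell by 3.18 ± 0.40 (adjusted p = 8.3e-06), Rsad2 fell by 2.51 ± 0.44 (adjusted p = 0.00041), the ISG15 protease Usp18 fell by 2.15 ± 0.44 (adjusted p = 0.0015) and Isg15 fell by 1.88 ± 0.44 (adjusted p = 0.0052). Usp18 did not pass in the libraries with few zeros alone (-1.76, adjusted p = 0.059). The letters GAAANNGAA of the interferon-stimulated response element, on either strand, were in 5 of 6 called members with a window, in 71.0% of 31 tested members with one, and in 7.26% of tested genes. Of 14 genes of class II presentation 3 fell and none rose, though 1 or 2 rose under some alternatives, while their summed share of FPKM was higher in serum, at 0.538% to 0.838% against 0.387% to 0.492% in TIC. Cd74, the invariant chain, had 10.3, 19.1 and 38.5 FPKM in TIC and 1.82, 0.639, 4.27 and 0.404 FPKM in FCS 5d (-3.11 ± 0.51, adjusted p = 0.00018), and the co-stimulator Cd86 had 38.7, 69.5 and 111 FPKM in TIC and 16.2, 21.6, 29.6 and 17.0 FPKM in FCS 5d (-1.65 ± 0.29, adjusted p = 0.00033). Both were lower in every serum library. The third, the co-stimulatory receptor Cd40, overlapped between groups (-1.45 ± 0.48, adjusted p = 0.046) and missed the threshold without any 1 of TIC 4 to 6 and FCS 5d 1 to 3 (adjusted p = 0.089 to 0.14) and without TIC 5 and TIC 6 together (adjusted p = 0.19). Of 22 genes of class I presentation 3 fell and none rose, with 1 fall without TIC 6, FCS 5d 2, FCS 5d 3, or TIC 5 and TIC 6.

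Stress genes fell more often than they rose. In the list of amino acid stress and the unfolded protein response 9 of 35 fell and 1 rose. Ddit3, or CHOP, a factor of prolonged stress in the endoplasmic reticulum, had 107, 136 and 214 FPKM in TIC and 24.1, 0, 18.5 and 16.7 FPKM in FCS 5d (-3.93 ± 0.85, adjusted p = 0.0029). FCS 5d 2 was listed at 0, the groups were separate with it or without it, and without it the difference was -2.84. Nupr1, a stress-induced chromatin protein, fell by 3.56 ± 0.59 (adjusted p = 0.00021) and the pseudokinase Trib3 fell by 3.11 ± 0.65 (adjusted p = 0.0020). Of 35 antioxidant genes 7 fell and 1, Gpx3, rose. Gstm1, a glutathione transferase, had 87.8, 207 and 271 FPKM in TIC and 24.8, 21.8, 18.9 and 30.3 FPKM in FCS 5d (-2.98 ± 0.41, adjusted p = 2.2e-05). Prdx5, a peroxiredoxin, had 930.0, 1372 and 3941 FPKM in TIC and 302, 313, 405 and 239.7 FPKM in FCS 5d (-2.47 ± 0.38, adjusted p = 0.00011). For both, TIC and serum were separate. Srxn1, which repairs oxidised peroxiredoxins, fell by 2.68 ± 0.42 (adjusted p = 0.00011). Immediate early genes, which switch on within minutes of a stimulus and of rough handling, fell in 9 of 31 with none higher. Fosl1, a partner in AP-1, fell by 2.99 ± 0.31 (adjusted p = 5.2e-07) and Egr2 fell by 2.54 ± 0.62 (adjusted p = 0.0071). In glycolysis and the hypoxia response 11 of 37 fell and 2 rose, with 7 falls without TIC 5 and TIC 6, FCS 5d 1 or FCS 5d 2 and 6 without FCS 5d 4. Slc16a3, the lactate exporter, had 28.8, 46.4, 90.7, 29.7, 184 and 151 FPKM in TIC 1 to 6 and 10.3, 3.08, 13.2 and 4.81 FPKM in FCS 5d (-3.14 ± 0.60, adjusted p = 0.00086), or -2.51 without TIC 5 and TIC 6. The glucose transporter Slc2a1 fell by 1.73 ± 0.28 (adjusted p = 0.00016). Ldhb, a lactate dehydrogenase chain, rose by 1.38 ± 0.42 (adjusted p = 0.030), with TIC 5 and TIC 6 inside the serum range. It rose by 2.02 without those, and lost its call without any 1 of TIC 1 to 4 and FCS 5d 2 to 4 (adjusted p = 0.053 to 0.12).

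Of genes of the translation and respiration machinery most were not called, in counts that depended on scaling and on the libraries used. Of 50 cytosolic ribosomal proteins 5 rose and none fell, 46 differences were above 0 and the median was 0.533. The count of rises was 0 without FCS 5d 4, 3 without TIC 1, 2 or 3, 2 without FCS 5d 2, 8 without TIC 5, 16 without TIC 5 and TIC 6, 11 after median-of-ratios and 15 after quantile scaling. In the libraries with few zeros alone 3 rose and the median was 0.0511. Their summed share of FPKM was 6.44% to 8.55% in FCS 5d and 3.64% to 6.11% in TIC. Rps4x had 377, 510.0 and 659.9 FPKM in TIC and 786, 1045, 757 and 1239 FPKM in FCS 5d (0.90 ± 0.23, adjusted p = 0.0090), and Rpsa, a ribosomal protein and laminin receptor, had 384, 451 and 529 FPKM in TIC and 679.5, 893, 766 and 981 FPKM in FCS 5d (0.87 ± 0.23, adjusted p = 0.011). Both groups were just separate. Of 46 subunits of oxidative phosphorylation 2 rose and none fell, with 4 rises after median-of-ratios and 7 after quantile scaling, 6 without TIC 5 and TIC 6, and 1 without TIC 1, TIC 3, TIC 4 or any 1 FCS 5d library. The median of 0.0873 became -0.287 in the libraries with few zeros alone, where 1 rose. Their summed share was 1.89% to 2.11% in FCS 5d and 1.42% to 1.88% in TIC. Reads of ribosomal protein genes can be divided with near-identical copies, which leaves their values uncertain.

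Genes known from microglia around plaques, the disease-associated set, fell in 15 of 35 with 1 higher and a median of -0.957. They include members already described, such as Atp6v0d2, Csf1, Ccl3 and Fabp5. Spp1, or osteopontin, had 17898, 1278, 16214, 883, 12764 and 9792 FPKM in TIC 1 to 6 and 4192, 352, 6015 and 63.0 FPKM in FCS 5d. TIC 2 and 4 and FCS 5d 2 and 4 were the low libraries of their groups, the groups overlapped, and the difference of -2.76 ± 1.19 (adjusted p = 0.14) did not pass. Gpnmb, a glycoprotein of lysosomes, had 2454, 3430 and 7037 FPKM in TIC and 2248, 2527, 2676 and 1396 FPKM in FCS 5d (-0.87 ± 0.35, adjusted p = 0.11), and Trem2, a lipid receptor of microglia, differed by 0.09 ± 0.47 (adjusted p = 0.94). Neither passed. In the iron list 3 of 25 rose and 3 fell, with 7 rises without TIC 5 and TIC 6, 5 without TIC 5, 6 without TIC 6, 7 after median-of-ratios and 8 after quantile scaling, and 1 without TIC 1, FCS 5d 2 or FCS 5d 4. Fth1, the heavy chain of ferritin, had 10306, 12364, 18056, 11457, 34604 and 34695 FPKM in TIC 1 to 6 and 4094, 7211, 8226 and 4849 FPKM in FCS 5d and fell by 1.60 ± 0.38 (adjusted p = 0.0052), while Cp, the ferroxidase ceruloplasmin, had 11.2, 14.2 and 21.5 FPKM in TIC and 45.6, 31.1, 44.6 and 35.9 FPKM in FCS 5d (1.34 ± 0.27, adjusted p = 0.0014). For both the groups were separate, and TIC 5 and TIC 6 were the highest for Fth1.

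Markers of other cells were scarce in both groups. The 128 listed markers of 8 other cell kinds made up 0.137% to 0.189% of summed FPKM in TIC and 0.135% to 0.167% in FCS 5d. Of 24 markers of monocytes and neutrophils 8 were at 0 in all 10 libraries, as were 12 of 19 of lymphocytes, 9 of 10 of red blood cells, 5 of 17 of oligodendrocytes, 8 of 14 of astrocytes, 12 of 17 of neurons, 6 of 17 of endothelial and mural cells and 7 of 12 of fibroblasts. Among TIC libraries the monocyte and neutrophil markers summed to between 0.0584% and 0.112%, and among FCS 5d libraries to between 0.035% and 0.0644%, and the lymphocyte markers to 0.0209% to 0.0329% and 0.0371% to 0.061%. Cd79b, a B cell receptor chain, had 0, 0, 1.37, 0.393, 0 and 1.23 FPKM in TIC 1 to 6 and 1.80, 4.12, 7.05 and 4.81 FPKM in FCS 5d (1.87 ± 0.38, adjusted p = 0.0015). Il7r, the interleukin-7 receptor, fell from 12.6, 29.9 and 32.7 FPKM to 8.37, 6.14, 4.92 and 8.23 FPKM (-1.82 ± 0.28, adjusted p = 7.3e-05). The groups were separate for both. Enpp2, Slc1a3 and Cdh5, listed for oligodendrocytes, astrocytes and endothelium, rose by 1.67 ± 0.40 (adjusted p = 0.0061), 1.99 ± 0.65 (adjusted p = 0.046) and 1.43 ± 0.43 (adjusted p = 0.028), at no more than 16.7 FPKM in any of the 10 libraries. Enpp2 was listed at 0 in FCS 5d 1 and its difference was 2.26 without that library. Cdh5 lost its call without any 1 of TIC 3, TIC 6 and FCS 5d 2 to 4 (adjusted p = 0.062 to 0.078) and Slc1a3 without any 1 of TIC 1 to 4 or any FCS 5d library (adjusted p = 0.055 to 0.14). On the same lists Clu, listed for astrocytes, fell (-2.34 ± 0.60, adjusted p = 0.011), but not past the threshold without TIC 5 and TIC 6 (-1.62, adjusted p = 0.070). Of the markers of neurons, Tubb3 fell from 1.05, 4.46 and 8.85 FPKM to 0, 0, 0.323 and 0.275 FPKM (-2.15 ± 0.41, adjusted p = 0.0010), and Eno2 fell with overlapping groups (-1.19 ± 0.39, adjusted p = 0.043), a call lost without any 1 of TIC 3, TIC 5, TIC 6, FCS 5d 1, FCS 5d 2 and FCS 5d 4 (adjusted p = 0.054 to 0.17) and, at -0.83, without TIC 5 and TIC 6 (adjusted p = 0.20). In all, 3 of 21 tested markers of monocytes and neutrophils rose and 3 fell, with 5 falls without TIC 5, TIC 6 or both. The counts were 1 and 1 of 13 for lymphocytes, 1 and 1 of 4 for astrocytes, 0 and 2 of 4 for neurons, 1 and 0 of 7 for oligodendrocytes, 1 and 0 of 8 for endothelial and mural cells, and 0 for the 5 of red blood cells and the 2 of fibroblasts. The part of other cells in these results was not tested.

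Set directly against 3 days of serum, 5 days differed in 61 genes (0.629%), 27 higher and 34 lower. Of the 466 genes that had risen against TIC 18 were also higher than at 3 days and none lower, and of the 785 that had fallen 26 were also lower and none higher. Both counts share the FCS 5d libraries with the comparison to TIC, and they are given as counts only. Against 1 day, 521 genes (5.38%) differed, 186 higher and 335 lower. C1qa had 52.2 to 114 FPKM at 1 day, 185 to 266 FPKM at 3 days and 422, 552, 666 and 719 FPKM at 5 days, and rose over 1 day by 2.97 ± 0.37 (adjusted p = 1.3e-05) but not over 3 days by the test (1.39 ± 0.39, adjusted p = 0.13). Mrc1 likewise had 9.72 to 16.8 FPKM at 1 day and 44.0 to 61.8 FPKM at 3 days, below all 5-day libraries, with 0.97 ± 0.29 (adjusted p = 0.19) over 3 days. Ctsk had 70.2 to 1055 FPKM at 1 day and 13.1 to 24.2 FPKM at 3 days, and was lower at 5 days than at 1 day, with a difference of -6.20 ± 0.73 (adjusted p = 7.6e-06). By limma no mitotic gene differed between 5 and 3 days, with 0 of 59 past an unadjusted p of 0.05 too. Compared with 1 day, 20 of 59 were higher by adjusted p, and 48 at an unadjusted p under 0.05.

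A small set of genes separated the fifth day from the third. Cybrd1 was at 0.996 to 4.75 FPKM at 3 days and higher at 5 days by 3.64 ± 0.40 (adjusted p = 3.2e-05). Colec12 was at 2.93 to 12.0 FPKM at 3 days and rose by 2.94 ± 0.45 (adjusted p = 0.0015). Clec4a1, a C-type lectin, had 15.4, 45.3 and 80.8 FPKM in TIC, 46.7 to 61.8 FPKM at 3 days and 209, 307, 343 and 266 FPKM at 5 days (2.35 ± 0.44, adjusted p = 0.0078 over 3 days). In these 3 genes the libraries of 3 days overlapped TIC and all of those of 5 days stood above both. Aebp1, a carboxypeptidase-like protein of matrix, was higher by 2.70 ± 0.36 (adjusted p = 0.00035) and Cxcl13 by 3.50 ± 0.73 (adjusted p = 0.021). Il1b was at 120.0 to 181 FPKM at 3 days, below TIC and 5 days alike, and higher at 5 days by 1.76 ± 0.32 (adjusted p = 0.0061). Hmox1, haem oxygenase, was at 555, 800.2 and 1146 FPKM in TIC, at 1898 to 3528 FPKM at 1 day, at 1198 to 1969 FPKM at 3 days and at 214, 479.6, 423 and 347 FPKM at 5 days. It thus stood above TIC at the earlier times and below it at 5 days, with differences of -2.10 ± 0.29 (adjusted p = 0.0005) against 3 days and -1.19 ± 0.27 (adjusted p = 0.0039) against TIC. In the libraries with few zeros alone the difference of Hmox1 from TIC was -0.78 and did not pass (adjusted p = 0.083). Tmem119 was at 31.5 to 46.2 FPKM at 3 days and lower at 5 days (-1.97 ± 0.44, adjusted p = 0.034), and Gpr84, a receptor for medium-chain fatty acids, was at 66.1 to 135 FPKM at 3 days and lower at 5 days (-2.87 ± 0.58, adjusted p = 0.017). Lsp1 and Trem1, already below TIC at 3 days, were lower again at 5 days, with differences of -2.64 ± 0.30 (adjusted p = 3.2e-05) and -2.19 ± 0.38 (adjusted p = 0.0044). The lysozymes Lyz2 and Lyc2 were lower than at 3 days, with differences of -1.82 ± 0.34 (adjusted p = 0.0078) and -4.30 ± 0.94 (adjusted p = 0.027), but the genes are near copies, and Lyc2 was at 0.696 FPKM in FCS 5d 1 against 65.0 to 146 FPKM in the other 3.

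**Figure D5:**
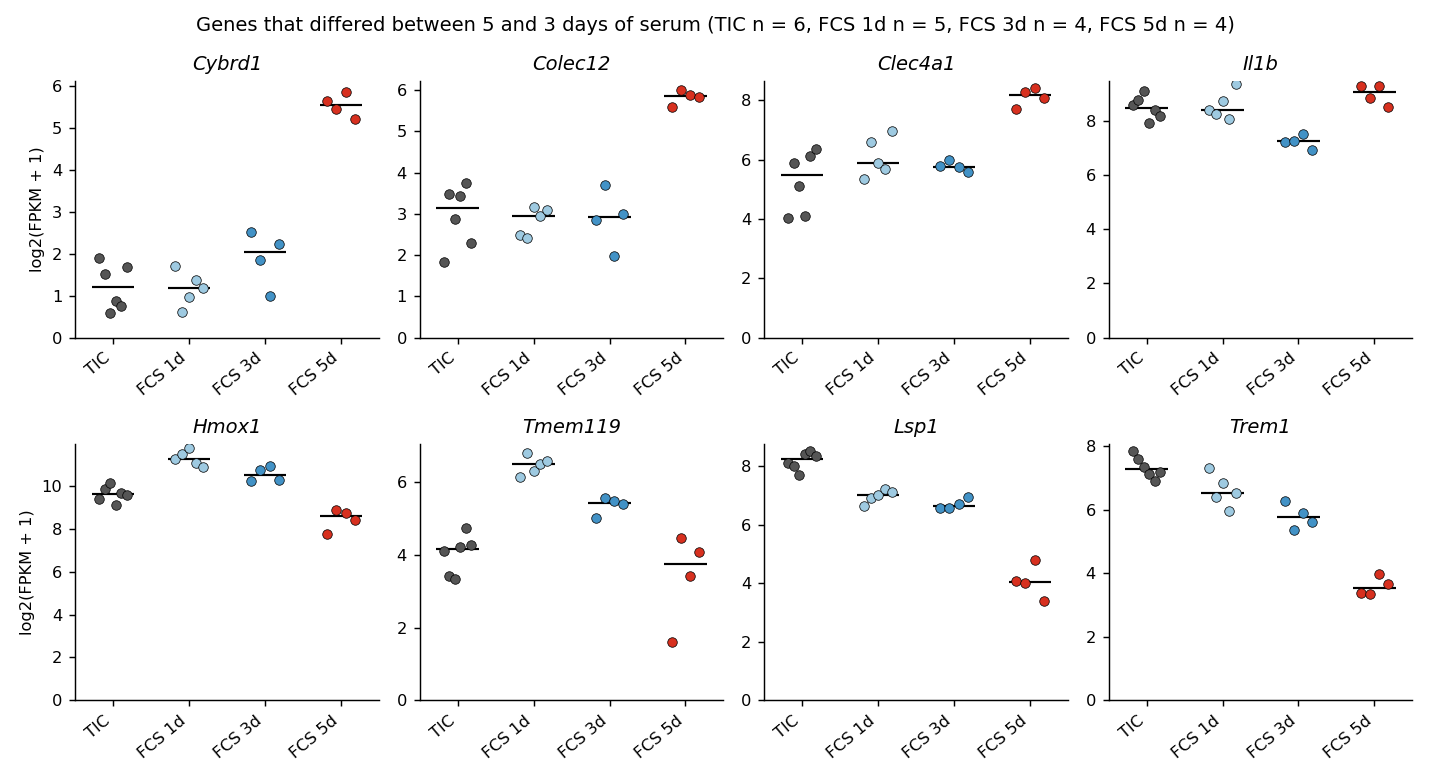
Log2(FPKM + 1) of 8 genes that differed between FCS 5d and FCS 3d, 1 point per library, with group medians as lines, for TIC and 1, 3 and 5 days of serum. Cybrd1 was at 0.996 to 4.75 FPKM at 3 days and 35.9 to 56.5 FPKM at 5 days, and Hmox1 stood above TIC at 1 and 3 days and below it at 5 days.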

How the data were processed

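The authors deposited 1 table of FPKM values for 17284 gene symbols in 22 samples. Poly-A RNA was amplified by SmartSeq2, tagmented and read as paired ends, per the labels' protocols, and the submitters' processing notes name HISAT2 2.0.3, Cufflinks 2.2.1 and rn6. The sources used here name no gene annotation, no scaling of the FPKM and no depth per sample, so no counting interval is given. Cufflinks estimates can fail, so that a value listed at 0 need not mean that no read was seen.

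Values were taken as log2(FPKM + 1). Tested were 9691 genes that reached 1 FPKM in 3 or more of the 22 samples. One limma model (limma 3.58.1, R 4.3.3, trend and robust options) of the 5 group means was fitted to all 22 samples, two-sided, with Benjamini-Hochberg adjustment over all tested genes and a threshold of 0.05. Adjusted p-values throughout are from that fit. The fit was tested on simulated data, drawn as independent normal values around gene means. These held none of the divisions between libraries, so that test cannot show how the fit handles them. No pair of samples had identical values. Groups came from column titles. Whether the numbers shared by groups pair samples is unknown. Deviations of same-numbered libraries correlated at 0.229, -0.0419, 0.0367 and 0.191. The FCS 5d library that deviated most like it was FCS 5d 1 for TIC 1, TIC 2 and TIC 3 and FCS 5d 4 for TIC 4. These correlations cannot decide the pairing.

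Named genes are the 15 largest rises and falls among called genes whose groups did not overlap, up to 5 called members per list and up to 2 against its trend, the 6 largest each way against FCS 3d and FCS 1d, and genes fixed for the comparison. Some genes that this rule takes in are not reported here. The members and the 46 lists were chosen with earlier results of these data known. Promoter windows are from RefSeq for GRCr8, matched by symbol (14810 of 17284, and 2088 more by a synonym only, which were not used). Alternatives changed the pseudocount, filter, scaling, samples, replicate block and library divisions, and left out each library.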

Additional observations from a re-analysis of the deposited data

Results flagged for a closer look

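Among 326 checks of the highest and lowest library of a group, 22 set a library apart from the rest of its group. Chance alone does so in about 5% of such checks, so no excess is claimed. In TIC 4, Ccr1 was at 20.1 FPKM, Ccl9 at 9.97, Olr1 at 5.96 and Il7r at 12.6, each below the other TIC libraries, and Cxcl13 was at 1.31 where the others were listed at 0. In TIC 3, Entpd1 was at 1.61 FPKM, Anxa3 at 28.1 and Gstm1 at 87.8, all the lowest of TIC. In TIC 5, Pltp was at 135 FPKM against a listed 0 in the others, and Ms4a6bl at 10.3. Srebf1 was lowest in TIC 1 at 37.3 FPKM. In FCS 5d 4, Isg15 was at 8.05 FPKM, Irak3 at 8.49 and Plk2 at 6.66, below the other serum libraries, and Clec4e at 0.670, Ptgs2 at 0.267 and Adam9 at 93.8 above them. In FCS 5d 3, Cd55 was at 0.310 FPKM where the others were listed at 0. Skp2 was lowest in FCS 5d 3 at 4.21 FPKM and Csf3r in FCS 5d 2 at 4.42 FPKM. Ddit3 in FCS 5d 2 and Enpp2 in FCS 5d 1 were listed at 0 where the other serum libraries were not. TIC 2 and TIC 6 were set apart for none of the genes.

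Of the named genes, 19 differed between 5 and 3 days of serum by limma. On the log2 scale Cybrd1 was higher at 5 days by 3.64, Cxcl13 by 3.50, Colec12 by 2.94, Aebp1 by 2.70, Clec4a1 by 2.35 and Il1b by 1.76, along with Islr by 2.49 (adjusted p = 0.019) and Cd79b by 2.23 (adjusted p = 0.0072). The differences of genes lower at 5 days were -4.30 for Lyc2, -2.93 for Mmp12, -2.87 for Gpr84, -2.64 for Lsp1, -2.64 for MGC105649, -2.19 for Trem1, -2.10 for Hmox1, -1.97 for Tmem119, -1.82 for Lyz2, -1.57 for Il7r and -1.57 for Ch25h, the cholesterol 25-hydroxylase (adjusted p = 0.017).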

How the results depend on the processing

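Against TIC, 1251 genes were called, and 816 to 1262 with 1 library left out each time, the fewest without FCS 5d 4. The other alternatives stayed within 1.5 times that count, except 131 with TIC 1, 2 and 3 and FCS 5d 1 alone, the libraries with many zeros, where the only serum library was taken to vary like the other groups. With the replicate number as a block, 1458 were called. Whether the numbers pair the samples is unknown, and not every library deviated most like the one with its own number. The block ended the calls of Tnf (adjusted p = 0.084), Cdh5 (0.071) and Eno2 (0.097) and gave calls to Aif1 (0.0035), Apoe (0.00022), Cx3cr1 (0.049), Gpr84 (0.018) and Spp1 (0.0019). Against FCS 3d, where 61 were called, the count was 99 after median-of-ratios scaling, 116 after quantile normalization, 163 with the 2 groups alone, 158 with the replicate block, 136 and 109 with the division by summed FPKM or by zeros as a term, 22 and 6 with libraries of few or many zeros alone, and 27 to 54 with 1 library left out. Against FCS 1d, where 521 were called, it was 46 with libraries of many zeros alone, 817 with the zeros division as a term, and 344 to 456 with 1 library left out. The cause of these moves was not tested. Of 163 genes named with their values, 148 were called against TIC and none of these reversed direction under any alternative. With the libraries with many zeros alone, though, the difference of Enpp2 was 0. Of the 148, 112 stayed called under every alternative apart from the libraries with many zeros alone, where 100 did not pass. A pseudocount of 0.1 ended the calls of Cdkn2b, Ccl4, Cd40, Cenpa, Eno2, Egr2, Ms4a7, Cdh5, Gas6, P2ry2 and Tnfrsf11a (adjusted p = 0.052 to 0.14). In the libraries with few zeros alone 13 calls ended. They were those of Anxa3, Cdkn2a, Csf3r, Gas6, Hmox1, Irak3, Ldhb, P2ry12, Pltp, Slc1a3, Tlr9, Tnfrsf11a and Usp18 (adjusted p = 0.059 to 0.32). Depth limits low genes, since steps of 1 read differ several-fold between libraries.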

Other observations

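Several enzymes of lipid mediators fell in FCS 5d against TIC. Of 22 tested genes of eicosanoid synthesis 6 fell and 1 rose, with a median difference of -0.264, where 8.1% of all tested genes fell, 4.81% rose and the median was -0.0795. Differences are on the log2(FPKM + 1) scale by limma. Alox15, a lipoxygenase, had 59.2, 43.9, 31.0, 82.2, 8.91 and 6.13 FPKM in TIC 1 to 6 and 0.996, 1.58, 1.82 and 2.22 FPKM in FCS 5d (-3.43 ± 0.50, adjusted p = 5.1e-05). TIC 5 and TIC 6 were the lowest of TIC, and without them the difference was -4.31. Ptgs2, the inducible cyclooxygenase, had 2.88, 8.37 and 15.3 FPKM in TIC and 0, 0, 0 and 0.267 FPKM in FCS 5d (-3.01 ± 0.42, adjusted p = 3e-05). Pla2g7, which breaks down platelet-activating factor, had 163, 269 and 395 FPKM in TIC and 43.1, 71.1, 87.7 and 75.9 FPKM in FCS 5d (-1.94 ± 0.30, adjusted p = 9.2e-05). All 3 were lower in every serum library, as was Alox12, another lipoxygenase (-2.37 ± 0.32, adjusted p = 1.8e-05). Hpgds, a prostaglandin D synthase, rose (1.13 ± 0.35, adjusted p = 0.035), with overlapping groups and adjusted p = 0.053 to 0.11 without TIC 1, TIC 3, TIC 4, TIC 6, FCS 5d 2, FCS 5d 3 or FCS 5d 4.

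Growth factors moved both ways, with 2 of 15 higher, 3 lower and a median of 0. Hbegf, a ligand of the EGF receptor, had 11.8, 19.2 and 38.0 FPKM in TIC and 4.22, 1.49, 3.67 and 0 FPKM in FCS 5d (-2.94 ± 0.54, adjusted p = 0.00063). Pdgfa, a growth factor for oligodendrocyte precursors, had 5.66, 6.39, 5.07, 10.2, 62.7 and 56.4 FPKM in TIC 1 to 6 and 1.67, 2.35, 0 and 0.742 FPKM in FCS 5d (-2.93 ± 0.65, adjusted p = 0.0034). Neither overlapped between groups, and the difference of Pdgfa was -1.94 without TIC 5 and TIC 6. Gas6, a bridge between dying cells and phagocytes, had 19.0, 36.4 and 100.5 FPKM in TIC and 60.1, 129, 85.8 and 259 FPKM in FCS 5d with overlap (1.46 ± 0.47, adjusted p = 0.044), and missed the threshold without any 1 of TIC 1 to 4 and FCS 5d 2 to 4 (adjusted p = 0.056 to 0.21). Of 33 genes of NF-kB and Toll-like signalling 3 rose and 3 fell (median -0.26), with 5 rises after quantile or median-of-ratios scaling and without TIC 5 and TIC 6. Traf1, an adaptor that NF-kB induces, had 45.1, 72.3 and 94.2 FPKM in TIC and 11.4, 6.23, 11.3 and 3.81 FPKM in FCS 5d (-3.02 ± 0.35, adjusted p = 2.2e-06), and Nos2, the inducible nitric oxide synthase, had 0.854, 3.53 and 6.11 FPKM in TIC and 0, 0.101, 0.150 and 0 FPKM in FCS 5d (-1.90 ± 0.33, adjusted p = 0.00031). Both were lower in every serum library. Tlr9, the receptor for unmethylated DNA, rose (1.69 ± 0.47, adjusted p = 0.019), but not past the threshold without FCS 5d 1 (adjusted p = 0.054) or FCS 5d 4 (adjusted p = 0.079). Irak3, an inhibitor of Toll-like signalling, rose (1.45 ± 0.32, adjusted p = 0.0032), and Csf3r, the receptor for G-CSF, rose (2.04 ± 0.48, adjusted p = 0.0058), each with 1 serum library among the TIC values. Neither passed in the libraries with few zeros alone (adjusted p = 0.066 for Irak3 and 0.138 for Csf3r).

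In fatty acid uptake, storage and oxidation 5 of 27 fell and 1 rose (median -0.0203), with 2 falls without FCS 5d 4 and 3 without TIC 6, FCS 5d 2, or TIC 5 and TIC 6. Acsl3, an acyl-CoA synthetase of lipid droplets, had 21.7, 33.0 and 50.0 FPKM in TIC and 6.30, 8.46, 10.7 and 17.5 FPKM in FCS 5d (-1.65 ± 0.28, adjusted p = 0.00031), and Hadha, a subunit of the mitochondrial trifunctional protein, had 25.8, 30.0 and 48.1 FPKM in TIC and 53, 60.9, 59.6 and 78.1 FPKM in FCS 5d (0.91 ± 0.20, adjusted p = 0.0034). Both were separate between groups. Of 23 genes of the p53 response 6 fell and 1 rose (median -0.702), with 3 falls without TIC 5 and TIC 6. The gene that rose, by 1.89, is not named here. The kinase Plk2 fell (-2.35 ± 0.62, adjusted p = 0.012) but was at adjusted p = 0.054 without TIC 5 and TIC 6. Btg1, an antiproliferative protein, had 96.9, 197 and 246 FPKM in TIC and 61.9, 46.0, 52.6 and 77.3 FPKM in FCS 5d (-1.53 ± 0.35, adjusted p = 0.0047), and missed the threshold after quantile normalization (adjusted p = 0.062). Skp2, which targets p27 for degradation, had 0, 1.17 and 2.49 FPKM in TIC and 5.87, 5.81, 4.21 and 6.04 FPKM in FCS 5d (1.71 ± 0.30, adjusted p = 0.00035), and Tgif1, a repressor of TGF-beta targets, had 17.8, 36.8 and 49.0 FPKM in TIC and 11, 11.6, 11.9 and 11.2 FPKM in FCS 5d (-1.46 ± 0.28, adjusted p = 0.0010). For both, TIC and serum did not overlap. Of 38 genes of the actin cytoskeleton 5 fell and 1 rose (median -0.0144), with 1 fall without FCS 5d 4 or without TIC 5 and TIC 6, 2 without TIC 6, 3 without TIC 3, TIC 5, FCS 5d 1 or FCS 5d 3, and 13 in the libraries with few zeros alone. Their summed share of FPKM was nonetheless higher in serum, at 5.93% to 7.97% against 4.70% to 5.65% in TIC. The bundling protein Fscn1 rose (1.49 ± 0.45, adjusted p = 0.031) and the filament protein Vim fell (-1.21 ± 0.35, adjusted p = 0.022). Fscn1 missed the threshold without TIC 1, TIC 3, FCS 5d 2, FCS 5d 3 or FCS 5d 4 (adjusted p = 0.061 to 0.105), and Vim without FCS 5d 1 (adjusted p = 0.091), FCS 5d 4 (adjusted p = 0.061) or TIC 5 and TIC 6 (adjusted p = 0.068).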
